A study of Mus musculus with 9 samples.

Results

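The FOS and JUN family encodes the subunits of the transcription factor AP-1, and its 7 members, the FOS genes Fos, Fosb, Fosl1 and Fosl2 and the JUN genes Jun, Junb and Jund, were chosen by gene name from the 54532 genes listed for each library. RNA sequencing covered 9 libraries of the mouse brain endothelial line B.END3, 3 untreated (Ctrl), 3 at a light dose of 10 J/cm2 (Ep1) and 3 at 20 J/cm2 (Ep2). The treated cells were a confluent layer kept with the photosensitizer porfimer sodium at 300 µg/mL for 90 min and then lit by a 635 nm laser at 100 mW/cm2, the procedure called photodynamic therapy (PDT). B.END3 is a single immortalized line, with its strain labelled C57BL/6; the labels give the organism as mouse, although the growth text calls the line rat. No group received only the drug or only the light, and the time from light to lysis is not given in the sources used here. A change in a treated group therefore cannot be told apart from the effect of either agent alone, and fewer responding cells cannot be told apart from less RNA per cell in such bulk libraries.

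AP-1 is a dimer of basic leucine zipper (bZIP) proteins. JUN proteins can pair among themselves or with a FOS protein, whereas FOS proteins need a JUN partner to bind DNA, so the mix of subunits sets which dimers can form. Fos, Fosb, Jun and Junb are classic immediate early genes: kinases of the MAPK pathways act on factors already bound at their promoters, the transcripts appear soon after a stimulus without new protein synthesis, and they decay quickly. Fosl1 and Fosl2, which encode FRA-1 and FRA-2, usually follow later and lack the strong activation domain of FOS, and Jund is expressed broadly in resting cells. In endothelial cells AP-1 is known for its part in responses to cytokines, shear stress and oxidants.

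The levels used here are FPKM, fragments per kilobase of gene scaled to the mapped total of the library, which allow genes of different length to be compared. Library totals lay between 16240688 and 19509225 fragments. In the Ctrl libraries Fosb, the least abundant member by FPKM, had 98 to 106 fragments, and the shorter Fos had the fewest, 72 to 81. Of 12 endothelial markers, 3 (Flt1, Eng and Egfl7) reached 1 FPKM in at least 3 libraries, Emcn and Erg were at 0 in all 9, and Pecam1 stayed between 0.0821 and 0.242 FPKM. The epithelial keratins Krt8, Krt18 and Krt19 lay between 135 and 714 FPKM, whereas Epcam lay between 0.607 and 2.03 and Cdh1 between 0.0118 and 0.103. The endothelial markers thus go against the endothelial label and the epithelial list was mixed, so the cells are called by the name of the line. The summed endothelial list ran from 11.3 to 11.8 FPKM in Ctrl, 11.2 to 13.0 in Ep1 and 14.2 to 15.3 in Ep2, and the summed epithelial list from 1029 to 1081, 936.8 to 1041 and 1155 to 1372; their part in the results was not tested. Of the other cell types checked, fibroblast (1 of 5 markers) and neuronal (1 of 4) lists had a marker past that level, and pericyte (0 of 6), leukocyte (0 of 5), astrocyte (0 of 4) and oligodendrocyte (0 of 4) lists had none.

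The promoters of Fos, Fosb and Jun are shown because these members had the largest differences between groups. Each line gives the 250 bases upstream of the RefSeq start on the gene's own strand, 5′ to 3′ (GRCm38.p6), in lower case, with matches to the motifs searched in capitals. The Fos window is chr12:85473640-85473889 on the plus strand, the Fosb window chr7:19310046-19310295 on the minus strand and the Jun window chr4:95052223-95052472 on the minus strand.
Fos: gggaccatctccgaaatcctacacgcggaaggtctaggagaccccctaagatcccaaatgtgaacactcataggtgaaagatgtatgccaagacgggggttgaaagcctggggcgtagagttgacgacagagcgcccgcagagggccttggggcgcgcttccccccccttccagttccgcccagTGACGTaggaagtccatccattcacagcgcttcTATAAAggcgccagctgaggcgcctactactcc
Fosb: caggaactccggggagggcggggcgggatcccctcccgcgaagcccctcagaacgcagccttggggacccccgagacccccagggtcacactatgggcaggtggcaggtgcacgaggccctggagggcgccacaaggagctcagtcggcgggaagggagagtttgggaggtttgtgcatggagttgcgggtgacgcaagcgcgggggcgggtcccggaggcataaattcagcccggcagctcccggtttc
Jun: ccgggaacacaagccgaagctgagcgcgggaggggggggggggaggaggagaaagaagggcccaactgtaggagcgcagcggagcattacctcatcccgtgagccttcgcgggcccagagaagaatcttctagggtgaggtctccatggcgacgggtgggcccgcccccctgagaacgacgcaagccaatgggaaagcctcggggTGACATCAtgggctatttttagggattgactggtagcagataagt

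The motifs searched were the AP-1 site TGANTCA, the CRE core TGACGT and the longer site TGACNTCA, all on both strands, the CArG box bound by SRF, and TATAAA on the gene's strand. A TGACNTCA match whose N is G would also count under TGACGT. The Fos window held TGACGT at 66 to 61 bases and TATAAA at 33 to 28 bases before the start, and the Jun window held TGACATCA, a match to TGACNTCA, at 45 to 38 bases. The windows of Fosb, Fosl2, Junb and Jund held none of these letters, but the RefSeq start used lies at -1210 bases from the listed gene start for Jund (upstream) and at 671 bases for Fosl2 (downstream), so those windows may not border the start of the gene as counted. Among 32851 windows of the same length, 6.75% held TGANTCA, 6.47% TGACGT, 7.49% TGACNTCA, 1.47% a CArG box and 7.59% TATAAA. A match describes the letters of the window and does not show that a factor was bound there in these cells. The Fos window held no CArG box, but bases further upstream were not searched. A site beyond the window, for Fos or any other member, would not be seen, so a missing match does not show that a gene lacks the site.

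In Ctrl the family transcripts were mostly those of 1 FOS gene and 1 JUN gene. Fosl1 (92.2 ± 4.94 FPKM, mean ± SD, n = 3 here and below) and Junb (74.6 ± 4.97 FPKM) made up 42.7% and 34.6% of the summed FPKM of the 7 members, which was 215.9 ± 9.23. Jund (23.1 ± 2.34 FPKM), Jun (17.8 ± 1.01), Fosl2 (5.54 ± 0.228), Fos (1.73 ± 0.148) and Fosb (0.856 ± 0.0209) followed in that order, and no neighbours in the order overlapped between their Ctrl libraries. Fosl1 lay at the 95.5th percentile of the 11727 genes with at least 1 FPKM in at least 3 libraries and Fosb at the 2.20th. Fosb was below 1 FPKM in all Ctrl libraries and reached this filter through the treated libraries alone, so a higher treated value was built into its passing; the other 6 members passed it in every group.

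**Figure D1:**
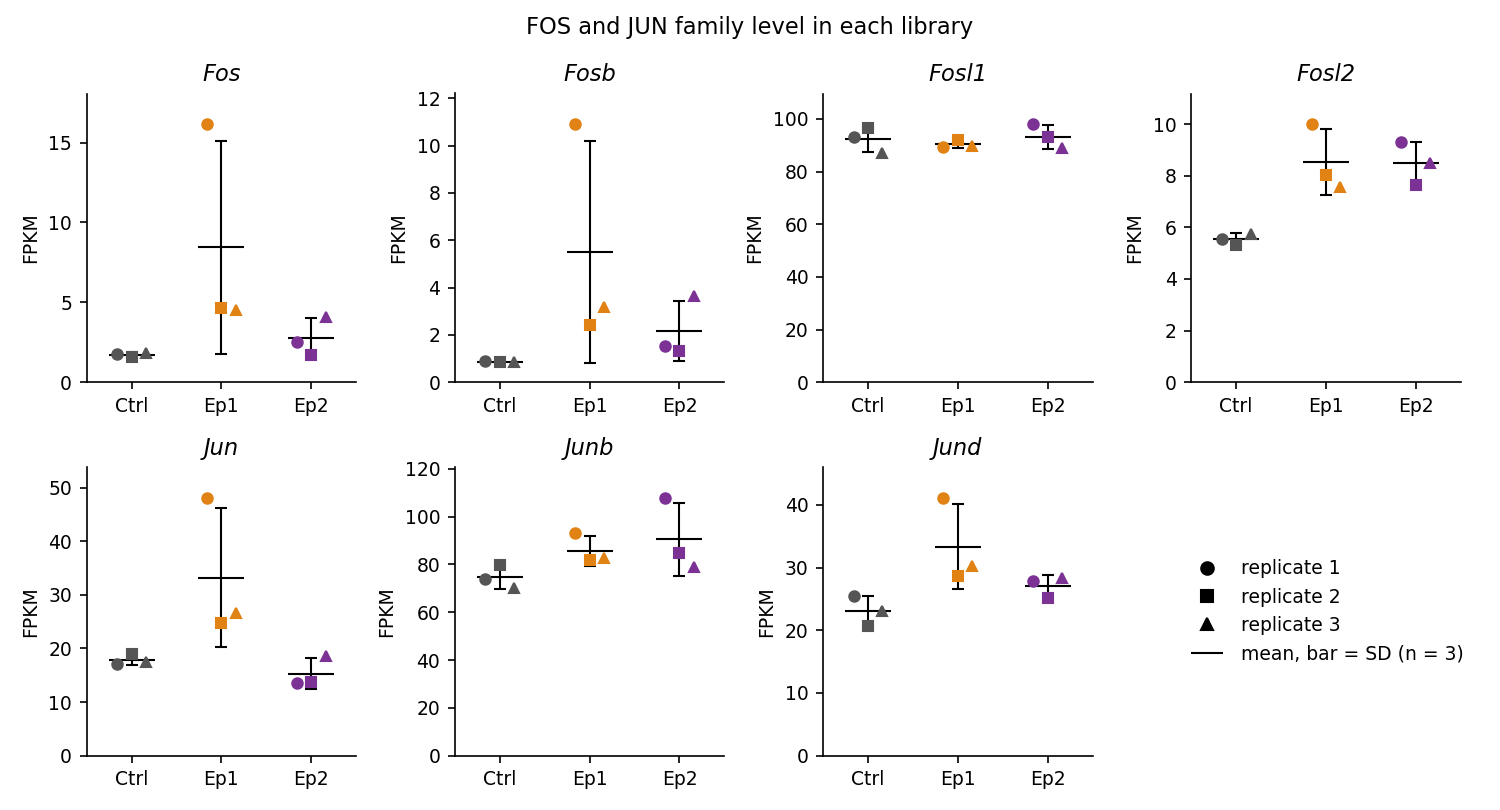
FPKM of each FOS and JUN family gene (vertical axis, from 0) in the 9 libraries of Ctrl, Ep1 and Ep2 (horizontal axis), with replicates as circles, squares and triangles, and black lines for the mean and SD of 3 libraries. Ep1 replicate 1 is the highest library for Fos, Fosb, Fosl2, Jun and Jund, while Fosl1 stays between 86.9 and 97.9 FPKM throughout.

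The order changed in Ep1. Fosl1 (90.3 ± 1.53 FPKM) and Junb (85.8 ± 6.28) remained the most abundant but their libraries now overlapped, as did those of Jund (33.3 ± 6.76) and Jun (33.2 ± 12.9), and those of Fosl2 (8.53 ± 1.28), Fos (8.44 ± 6.67) and Fosb (5.50 ± 4.69). In Ep2, Fosl1 (93.2 ± 4.52) and Junb (90.5 ± 15.3) again overlapped, Jund (27.1 ± 1.67) stood above Jun (15.3 ± 2.82) in every library, and Fos (2.78 ± 1.21) and Fosb (2.16 ± 1.28) overlapped below Fosl2 (8.48 ± 0.826).

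The comparison of Ep1 with Ctrl asks what the lower light dose did to the subunits. Fosl2 and Jund were higher in Ep1 past the test, Fos, Fosb and Jun had larger differences that did not pass it, and Fosl1 and Junb differed little. The test was limma on log2(FPKM + 1) over all tested genes, with Benjamini-Hochberg adjustment, and a gene was called at an adjusted p below 0.05. By this test 6.32% of all tested genes were higher and 4.97% lower in Ep1, against 2 of 7 members higher and 0 lower. With the added minimum of 0.6 for the absolute log2 fold change (a DEG), 0.571% of genes were higher and 0.222% lower, and 0 of 7 members were DEGs. In this limma fit 5 of the 7, Fosb with its filter limit among them, had an unadjusted p below 0.05. The share of all tested genes under that cutoff was not computed, so nothing is read from this count. Voom on the recovered fragments also called 0 members DEGs, without a computed share of all tested genes.

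Fos encodes the best known FOS protein. Its level was 1.76, 1.56 and 1.85 FPKM in Ctrl replicates 1, 2 and 3, and 16.1, 4.66 and 4.51 FPKM in Ep1. All Ep1 libraries were above all Ctrl libraries, and Ep1 replicate 1 was 3.52 times the mean of the other two. The log2 fold change was 1.57 (SE 0.43, 95% interval 0.57 to 2.58), the 10th largest rise of the tested genes, with an adjusted p of 0.056 in limma. Without Ep1 replicate 1 it was 1.04 (SE 0.23, adjusted p = 0.0556), and with a pseudocount of 0.1 in place of 1 it was 1.96 (adjusted p = 0.0499).

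Fosb, whose short splice form is known for its long-lived protein, moved in parallel. Its level was 0.881, 0.843 and 0.845 FPKM in Ctrl and 10.9, 2.44 and 3.17 FPKM in Ep1, again with no overlap and with Ep1 replicate 1 far above the rest. The log2 fold change was 1.58 (SE 0.46, 95% interval 0.51 to 2.65, adjusted p = 0.0652 in limma), and 1.03 (adjusted p = 0.0813) without Ep1 replicate 1. With a pseudocount of 0.1 the value was 2.23 (adjusted p = 0.0458). As Fosb reached the filter through the treated libraries alone, that pass is not free of the filter. Fosb is among the genes that the study itself selected from these libraries, so its direction here is not independent evidence. The study selected it among differentially expressed genes and lists qRT-PCR primers for it. Its list of genes reported as up-regulated by qRT-PCR at the higher light dose does not name Fosb. In the limma test used here Fosb was not called in Ep2 against Ctrl (adjusted p = 0.239).

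Fosl2 rose in both treated groups. Its level was 5.55, 5.30 and 5.76 FPKM in Ctrl, 9.99, 8.04 and 7.57 in Ep1, and 9.31, 7.65 and 8.48 in Ep2, so every treated library was above every Ctrl library and the treated groups overlapped. The log2 fold change was 0.54 in Ep1 (SE 0.10, adjusted p = 0.0126) and 0.53 in Ep2 (SE 0.10, adjusted p = 0.00131), both by limma and both under the DEG minimum. The direct comparison of Ep2 with Ep1 gave -0.00 (95% interval -0.22 to 0.21, adjusted p = 0.98). The Ep1 call was lost only without Ctrl replicate 2 (0.51, adjusted p = 0.0627).

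Fosl1, the most abundant FOS gene, gave the narrowest intervals of the family. Its level was 93.1, 96.6 and 86.9 FPKM in Ctrl, 89.3, 92.1 and 89.5 in Ep1 and 97.9, 93.0 and 88.9 in Ep2, and the 3 groups overlapped. The log2 fold change was -0.03 in Ep1 (95% interval -0.14 to 0.09, adjusted p = 0.748) and 0.02 in Ep2 (95% interval -0.10 to 0.13, adjusted p = 0.807). With a per-library fit that removed trends with length and transcript GC, chosen after the data were seen, the Ep2 value was 0.22 (adjusted p = 0.000548) and that of Ep2 against Ep1 0.13 (adjusted p = 0.01).

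**Figure D2:**
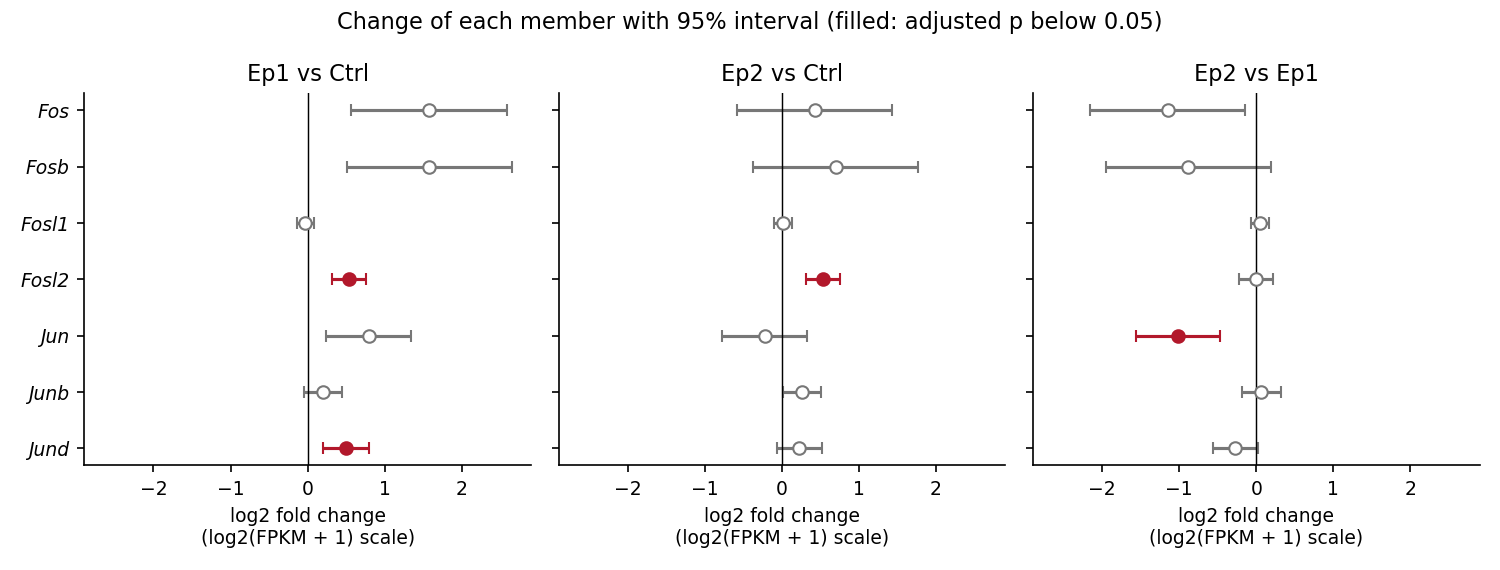
Log2 fold change on the log2(FPKM + 1) scale (horizontal axis) of each member for Ep1 vs Ctrl, Ep2 vs Ctrl and Ep2 vs Ep1, with 95% intervals from the limma model and filled points where the adjusted p was below 0.05. Fosl2 and Jund are filled in Ep1 vs Ctrl, Fosl2 in Ep2 vs Ctrl, and Jun in Ep2 vs Ep1, while the intervals of Fos and Fosb are the widest.

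Jun encodes c-JUN, the main target of the JNK kinases, and was the member whose level differed most clearly between the doses. Its level was 17.1, 19.0 and 17.4 FPKM in Ctrl, 48.1, 24.8 and 26.6 in Ep1, and 13.6, 13.8 and 18.6 in Ep2. All Ep1 libraries lay above all libraries of the other groups, while Ctrl and Ep2 overlapped. Against Ctrl the log2 fold change was 0.80 in Ep1 (SE 0.24, 95% interval 0.25 to 1.35, adjusted p = 0.0688) and -0.22 in Ep2 (95% interval -0.77 to 0.33, adjusted p = 0.463).

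Between the treated groups, Jun fell by 1.02 on the log2 scale from Ep1 to Ep2 (SE 0.24, 95% interval -1.57 to -0.47, adjusted p = 0.00992 in limma), which made it the only member called a DEG in any comparison. Without Ep1 replicate 1 it fell by 0.72 (adjusted p = 0.00254). In this comparison 1 of 7 members was lower and 0 higher, against 25.2% of all tested genes lower and 18.8% higher, and as DEGs 3.97% lower and 1.94% higher. Fos and Jund were also lower in every Ep2 library than in every Ep1 library, without passing the test: the log2 fold change was -1.15 for Fos (adjusted p = 0.0641) and -0.27 for Jund (adjusted p = 0.119). Fosb overlapped between the doses (-0.88, adjusted p = 0.16). Without Ep1 replicate 1 these values were -0.61 for Fos, -0.12 for Jund and -0.33 for Fosb (adjusted p = 0.0646, 0.315 and 0.371).

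Jund, whose product is the JUN protein common in resting cells, was at 25.4, 20.7 and 23.1 FPKM in Ctrl, 41.1, 28.7 and 30.2 in Ep1, and 27.9, 25.2 and 28.3 in Ep2. Ep1 did not overlap Ctrl, and Ep2 overlapped it by a narrow margin. The log2 fold change was 0.50 in Ep1 (SE 0.13, adjusted p = 0.0425) and 0.23 in Ep2 (adjusted p = 0.171). The Ep1 call was a narrow one: it remained when Ep1 replicate 2 was left out (adjusted p = 0.0375) but not when any of the other 8 libraries was (adjusted p = 0.0538 to 0.148), and without Ep1 replicate 1 the value was 0.34 (adjusted p = 0.0696). In Ep2 the call appeared without Ep1 replicate 1 (adjusted p = 0.0357), which narrows the shared spread and leaves the log2 fold change as it was, and with the removal of length and GC trends (0.43, adjusted p = 0.0256).

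Junb, the most abundant JUN gene and known to restrain JUN at some promoters, was at 74.1, 79.9 and 70.0 FPKM in Ctrl, 93.0, 81.7 and 82.6 in Ep1, and 107.8, 84.9 and 78.9 in Ep2. Ep1 did not overlap Ctrl and Ep2 did, since Ep2 replicate 3 was below Ctrl replicate 2. The difference from Ctrl on the log2 scale was 0.20 for Ep1 (adjusted p = 0.262) and 0.26 for Ep2 (SE 0.11, adjusted p = 0.069). The Ep2 value passed the test without Ep2 replicate 3 (0.36, adjusted p = 0.024) and with the removal of length and GC trends (0.47, adjusted p = 0.000904), which also made the Ep1 value pass (0.31, adjusted p = 0.0428). Without Ep2 replicate 1 the Ep2 value was 0.13 (adjusted p = 0.154). Jund and Junb have the most GC-rich transcripts of the family, with 67.2% and 62.6% GC, and Fos the least, with 51.9%.

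The comparison of Ep2 with Ctrl asks the same question at the higher dose. Only Fosl2 passed the test, so 1 of 7 members was higher and 0 lower, against 23.9% of all tested genes higher and 29.3% lower. As DEGs, 3.3% of genes were higher and 5.87% lower, and 0 of 7 members. In limma 2 members had an unadjusted p below 0.05, again without a computed share of all tested genes to set beside it. Voom called 1 member a DEG, likewise without a computed share. Fos was at 2.54, 1.70 and 4.10 FPKM in Ep2 and overlapped Ctrl (log2 fold change 0.42, 95% interval -0.58 to 1.43, adjusted p = 0.443). Fosb, at 1.55, 1.31 and 3.64 FPKM in Ep2, was above Ctrl in 3 of 3 libraries (0.70, 95% interval -0.37 to 1.77, adjusted p = 0.239). Both were highest in Ep2 replicate 3, and without it the values were 0.18 for Fos and 0.39 for Fosb. Without Ep1 replicate 1, Fosb passed the limma test (adjusted p = 0.0431). Its log2 fold change stayed at 0.70 while the SE went from 0.46 to 0.24. Because Fosb reached the filter through the treated libraries alone, this pass is not free of the filter.

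Both comparisons with Ctrl share the Ctrl libraries, so their values are set side by side only. In Ep1, 6 of 7 members had a positive log2 fold change and the median was 0.54, beside -0.01 over all tested genes. In Ep2, 6 of 7 were positive and the median was 0.26, beside -0.03. From Ep1 to Ep2, 2 of 7 were positive and the median was -0.27, beside -0.01. These medians include Fosb, whose filter is described above, and are given as a description.

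The make-up of the family moved with these levels. The summed FPKM of the 7 members was 215.9 ± 9.23 in Ctrl, 265.1 ± 37.6 in Ep1 and 239.6 ± 18.2 in Ep2. In Ctrl, Fosl1 held 91.9% ± 0.742 of the summed FOS FPKM, beside 80.7% ± 8.64 in Ep1 and 87.4% ± 2.61 in Ep2, and every treated library was below every Ctrl library. Fos and Fosb together held 2.58% of the FOS sum in Ctrl and 11.8% in Ep1, where replicate 1 reached 21.4% and the others 6.62% and 7.33%, and 4.65% in Ep2. Among the JUN genes, Jun held 15.4% of the sum in Ctrl, 21.3% in Ep1 and 11.7% in Ep2.

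The ratio of summed FOS to summed JUN FPKM was below 1 in all 9 libraries. It was 0.868 ± 0.00490 in Ctrl, 0.746 ± 0.0499 in Ep1 and 0.806 ± 0.0525 in Ep2, and no treated library reached the lowest Ctrl value of 0.862. Fos exceeded Fosb in every library, by 2.02 times on average in Ctrl, 1.61 times in Ep1 and 1.36 times in Ep2. These are shares of transcripts and say nothing of protein levels or of dimers.

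**Figure D3:**
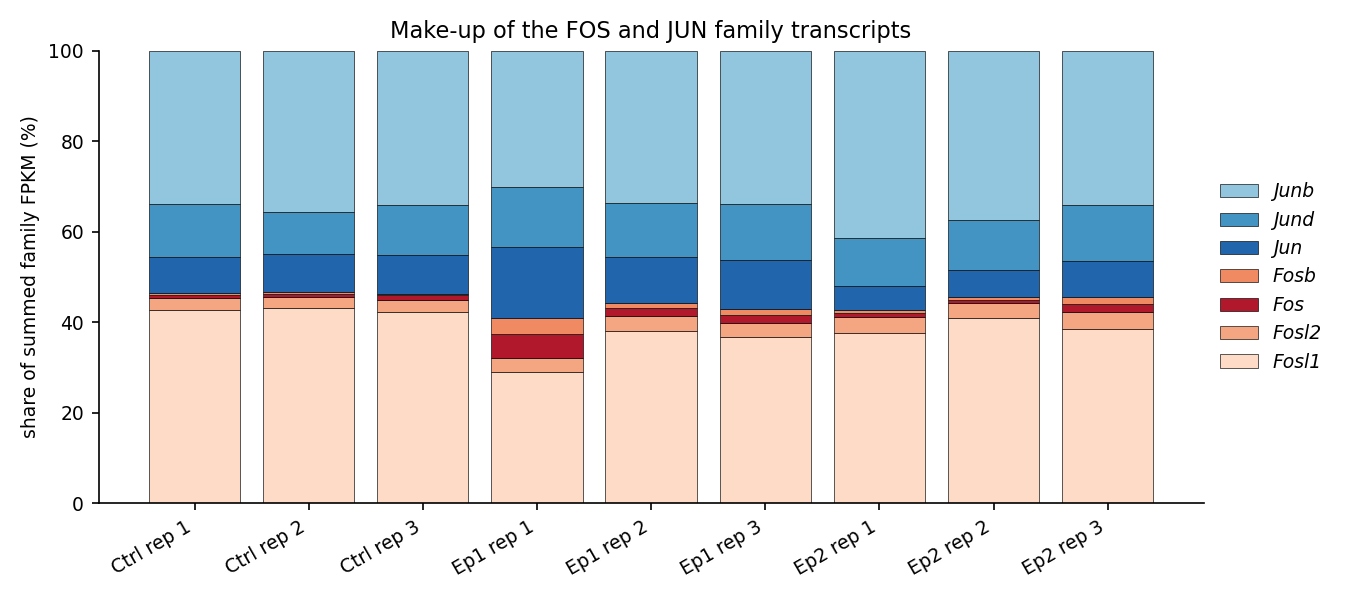
Share of the summed FPKM of the 7 members (vertical axis, percent) held by each gene in each of the 9 libraries (horizontal axis), with FOS genes in reds and JUN genes in blues. Fosl1 and Junb fill most of every bar, and the Fos, Fosb and Jun segments are widest in Ep1 replicate 1.

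Ep1 replicate 1 stood out for part of the family and for some genes outside it. On the log2(FPKM + 1) scale it lay above its group mean by 1.08 for Fos, 1.10 for Fosb, 0.59 for Jun, 0.31 for Jund, 0.21 for Fosl2 and 0.12 for Junb, and it lay at -0.02 for Fosl1. Over all tested genes its distance to the other libraries of its group was 0.194 (root mean square, log2), within the 0.174 to 0.243 of the other 8. That measure cannot show a difference limited to some genes. Adamts1 (37.8 FPKM, beside 15.6 and 20.1 in the other Ep1 libraries) and Plk2 (27.8, beside 18.0 and 18.9) were also highest in Ep1 replicate 1. These genes are named because they followed the members, as described below, and the cause was not tested. Ep2 replicate 3 was likewise above its group mean by 0.48 for Fos, 0.62 for Fosb and 0.28 for Jun, but not for Junb (-0.18).

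**Figure D4:**
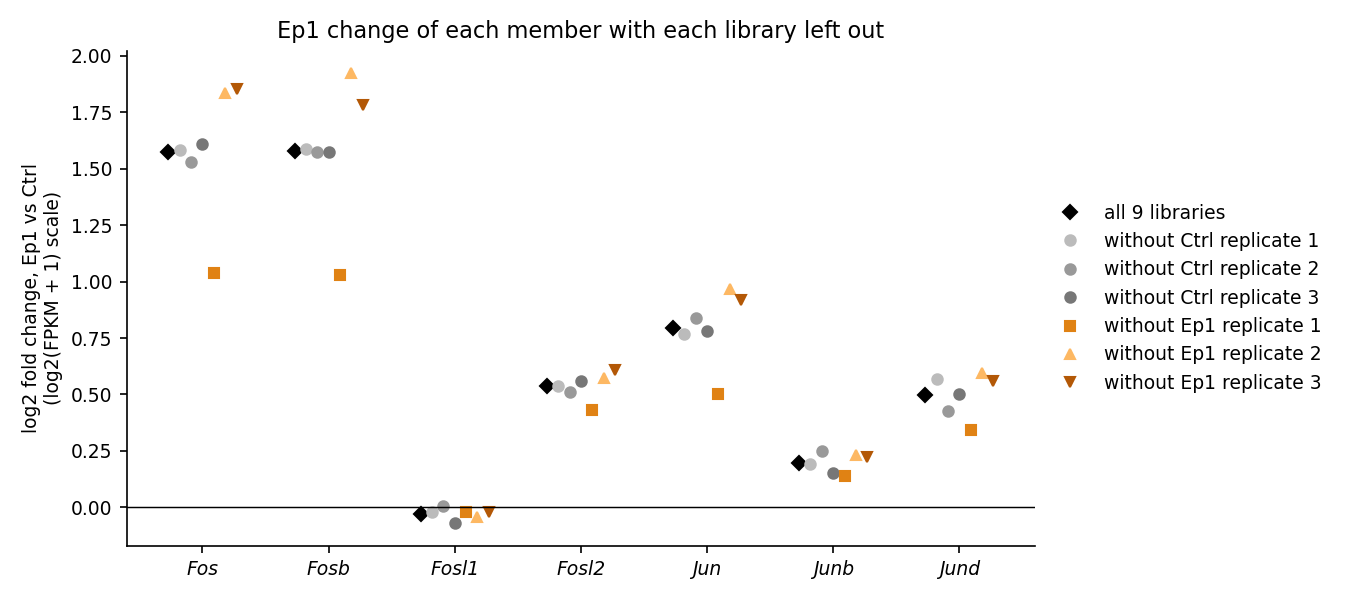
Log2 fold change of each member for Ep1 vs Ctrl on the log2(FPKM + 1) scale (vertical axis) with all 9 libraries (black) and with each Ctrl or Ep1 library left out in turn. Leaving out Ep1 replicate 1 lowers Fos to 1.04, Fosb to 1.03 and Jun to 0.50, and no member other than Fosl1 changes sign.

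The members also varied together across the libraries, which share the treatment groups and Ep1 replicate 1. Over the 9 libraries, Pearson's r of log2(FPKM + 1) was 0.98 between Fos and Fosb, 0.95 between Fos and Jund, 0.94 between Fosb and Jund and 0.91 between Fos and Jun. Without Ep1 replicate 1 these values were 0.93, 0.84, 0.83 and 0.70, and that of Jun with Jund went from 0.77 to 0.35. Fosl1 ran the other way from Fos (-0.40), Fosb (-0.41) and Jun (-0.44), and Junb had low values with Fos (0.36), Fosb (0.38) and Jun (0.09), which were 0.15, 0.20 and -0.35 without Ep1 replicate 1.

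The genes outside the family whose levels followed the members most closely over the 9 libraries differed from member to member. For Fos they were Ppp1r15a, which encodes the eIF2α phosphatase subunit GADD34 (r = 0.97), the stress-responsive kinase gene Plk2 (0.96) and Gem (0.95), a small GTPase gene. For Fosb they were Adamts1, a secreted metalloproteinase (0.98), Plk2 (0.98) and Gem (0.97), and for Jund they were Ppp1r15a (0.96) and Adamts1 (0.92). Adamts1 was at 8.50, 8.74 and 9.30 FPKM in Ctrl, 37.8, 15.6 and 20.1 in Ep1 and 12.9, 13.3 and 21.2 in Ep2, so it shared with Fosb both the high Ep1 replicate 1 and the high Ep2 replicate 3.

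For Fosl2 the closest were Ppp1r2, an inhibitor of protein phosphatase 1 (0.97), Csrnp1 (0.96) and Bcl10 (0.96), and for Jun they were Lclat1 (0.96), Timm23, a subunit of the mitochondrial inner membrane import channel (0.93), and Faf1 (0.93). Csrnp1 was at 13.4, 13.2 and 13.2 FPKM in Ctrl, 25.1, 18.5 and 19.3 in Ep1 and 26.8, 21.9 and 23.9 in Ep2. It was higher in both treated groups, as Fosl2 was. For Junb the closest were the lipid droplet gene Hilpda (0.97), Procr, the endothelial protein C receptor (0.95), and D17Wsu92e (0.94), and for Fosl1 they were the endocytic adaptor gene Epn1 (0.94), the phosphatase gene Ptpra (0.90) and Palm (0.89). These correlations describe 9 libraries in 3 groups and carry no test.

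Other bZIP genes whose products pair with FOS or JUN proteins formed a list of 14, of which 8 passed the filter. In Ep1, 4 were higher and 0 lower, and in Ep2, 6 were higher and 1 lower, with median log2 fold changes of 0.18 and 0.32; of all tested genes, 6.32% were higher and 4.97% lower in Ep1, and 23.9% and 29.3% in Ep2. Maff, a small MAF protein without an activation domain, went from 24.9 ± 1.52 FPKM in Ctrl to 37.8 ± 3.13 in Ep1 and 38.4 ± 3.34 in Ep2 (log2 fold changes 0.58, adjusted p = 0.006, and 0.60, adjusted p = 0.000176). The related Mafk rose in both groups (0.39, adjusted p = 0.00704, and 0.31, adjusted p = 0.00116), as did Mafg (0.17, adjusted p = 0.0233, and 0.42, adjusted p = 2.3e-05). From Ep1 to Ep2, 2 of the list were higher and 1 lower, beside 18.8% and 25.2% of all tested genes. Batf3, named after its values were seen, was the only one called lower, both in that comparison (-0.46, adjusted p = 0.00575) and in Ep2 against Ctrl (-0.73, adjusted p = 0.000313). Atf3, named in the same way and also selected by the study from these libraries, had the largest changes of the list against Ctrl. It went from 1.94 ± 0.246 FPKM in Ctrl to 17.8 ± 13.9 in Ep1 and 8.54 ± 4.69 in Ep2 (2.43, adjusted p = 0.0253, and 1.60, adjusted p = 0.0279). From Ep1 to Ep2 its value was -0.84 (adjusted p = 0.214). The study lists qRT-PCR primers for Atf3. Its list of genes reported as up-regulated by qRT-PCR at the higher light dose does not name Atf3.

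Of 20 genes for MAP kinases and their kinases, which act upstream of AP-1, 19 passed the filter. In Ep1, 1 was higher and 1 lower, in Ep2, 6 were higher and 5 lower, and from Ep1 to Ep2, 4 were higher and 3 lower, with medians of -0.03, 0.02 and -0.00. These counts lie near the shares of all tested genes, 6.32% higher and 4.97% lower, 23.9% and 29.3%, and 18.8% and 25.2%. In Ep1, Mapk8, which encodes the JUN kinase JNK1, went from 2.59 ± 0.101 to 3.38 ± 0.235 FPKM (0.29, adjusted p = 0.0384) and Mapk14, the stress kinase p38α, from 39.4 ± 0.559 to 34.3 ± 1.82 (-0.20, adjusted p = 0.0408). With single libraries left out, the Mapk8 call was lost in 6 of 9 cases (log2 fold changes 0.25 to 0.31, adjusted p = 0.0554 to 0.134) and the Mapk14 call in 7 of 9 (-0.24 to -0.17, adjusted p = 0.0502 to 0.142). With the removal of length and GC trends, Mapk8 was 0.16 (adjusted p = 0.143) and Mapk14 -0.15 (adjusted p = 0.0819), so neither passed. In Ep2, Mapk3, the kinase ERK1, fell (-0.39, adjusted p = 5.1e-05) and Rps6ka3, the kinase RSK2 activated by ERK, rose (0.37, adjusted p = 0.000911); with the removal of length and GC trends the values were -0.20 (adjusted p = 0.00245) and 0.22 (adjusted p = 0.00381).

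Of 12 genes for factors that act at the Fos and Jun promoters, 9 passed the filter, with 3 higher and 0 lower in Ep1, 4 higher and 1 lower in Ep2, and 0 higher and 1 lower from Ep1 to Ep2 (medians 0.19, 0.12 and 0.03). The shares of all tested genes were 6.32% and 4.97%, 23.9% and 29.3%, and 18.8% and 25.2%. Elk4, a partner of SRF, was at 6.69 ± 0.258 in Ctrl, 8.27 ± 0.201 in Ep1 and 9.05 ± 0.571 FPKM in Ep2 (0.27, adjusted p = 0.0181, and 0.38, adjusted p = 0.000316). Atf1, a CREB relative, rose in Ep1 (0.33, adjusted p = 0.0138), and Mef2d, a MADS box factor, rose in Ep2 (0.35, adjusted p = 0.00246). With single libraries left out, the Ep1 call was lost in 3 of 9 cases for Atf1 (0.29 to 0.33, adjusted p = 0.0504 to 0.0692) and in 4 of 9 for Elk4 (0.25 to 0.29, adjusted p = 0.0576 to 0.0701).

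All 11 genes for proteins that modify or degrade JUN and FOS passed the filter, with 2 higher and 0 lower in Ep1, 1 higher and 3 lower in Ep2, and 1 higher and 4 lower from Ep1 to Ep2 (medians 0.07, -0.03 and -0.05). Over all tested genes 6.32% and 4.97%, 23.9% and 29.3%, and 18.8% and 25.2% were higher and lower. Gsk3b, whose kinase marks JUN for ubiquitination, was at 8.53 ± 0.289 in Ctrl, 10.7 ± 0.310 in Ep1 and 12.4 ± 0.369 FPKM in Ep2 (0.30, adjusted p = 0.00879, and 0.50, adjusted p = 2.9e-05).

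Of 22 genes known as AP-1 targets in other cells, 21 passed the filter. In Ep1, 6 were higher and 0 lower, in Ep2, 13 were higher and 2 lower, and from Ep1 to Ep2, 5 were higher and 3 lower, with medians of 0.15, 0.39 and 0.03. Of all tested genes 6.32% were higher and 4.97% lower in Ep1, 23.9% and 29.3% in Ep2, and 18.8% and 25.2% from Ep1 to Ep2. Areg, which encodes the growth factor amphiregulin and which the study also selected from these libraries, was at 26.4, 28.7 and 30.1 FPKM in Ctrl, 53.5, 40.9 and 46.4 in Ep1 and 60.6, 56.0 and 59.1 in Ep2. The groups did not overlap. Against Ctrl the difference on the log2 scale was 0.70 for Ep1 (adjusted p = 0.00551) and 1.02 for Ep2 (adjusted p = 2.1e-05). The study reports Areg as up-regulated by qRT-PCR at the higher light dose. Plaur, the urokinase receptor, went from 57.6 ± 1.05 to 77.3 ± 2.63 and 81.8 ± 3.95 FPKM (0.42, adjusted p = 0.00464, and 0.50, adjusted p = 2.8e-05). More of this list was called in Ep2 than in Ep1, but 23.9% of all tested genes were higher in Ep2 against 6.32% in Ep1, and the difference between the counts was not tested.

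**Figure D5:**
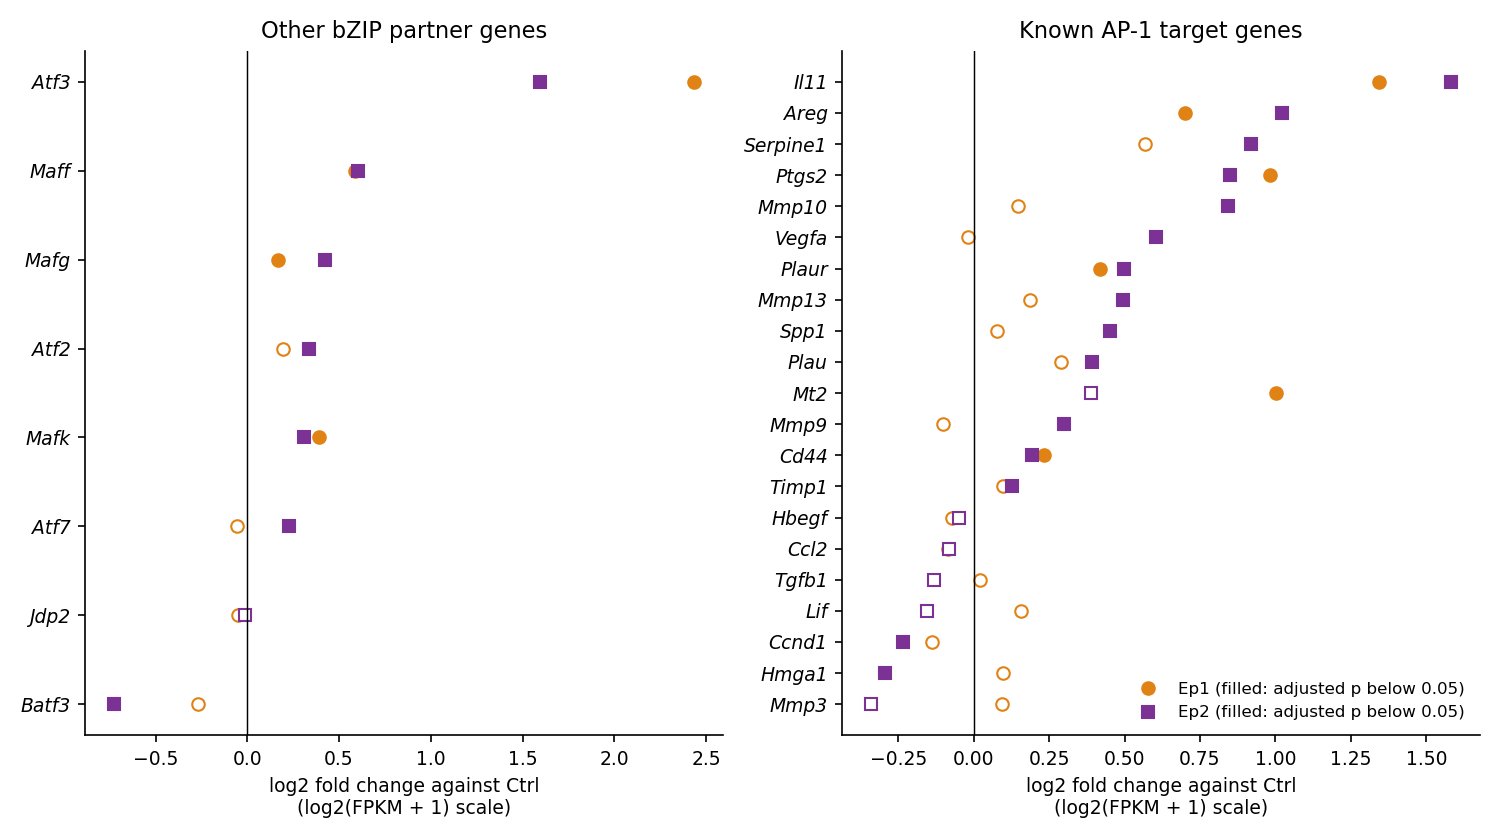
Log2 fold change against Ctrl on the log2(FPKM + 1) scale (horizontal axis) for the 8 tested bZIP partner genes and the 21 tested AP-1 target genes, in Ep1 (circles) and Ep2 (squares), filled where the adjusted p was below 0.05. Maff lies at 0.58 and 0.60 and Plaur at 0.42 and 0.50, and more of the target genes are filled in Ep2 (15) than in Ep1 (6). Of all tested genes, 23.9% were higher and 29.3% lower in Ep2, and 6.32% and 4.97% in Ep1.

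Listed genes on the opposite strand overlap the JUN genes, and whether the counting used strand is not stated. Junos shares 689 bases with Jun and lay between 0.631 and 1.16 FPKM, with all Ep1 libraries (0.631 to 0.695) below all Ctrl libraries (0.772 to 1.15). Prdx2, a peroxiredoxin gene, shares 351 bases with Junb and lay between 76.8 and 88.2 FPKM in Ctrl and Ep1 and between 57.1 and 63.0 in Ep2. Gm11175 shares 919 bases with Jund and was at 0 in all 9 libraries. Reads of Jun and Junos, or of Junb and Prdx2, in the shared bases cannot be told apart without strand.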

How the data were processed

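The kind of RNA selection is not given in the sources used here. The authors deposited one FPKM value per gene and library, scaled by the length of the gene and the size of the library; the 9 single-library tables equal the joint table. The submitters' processing notes list Bowtie 0.12.2 and mm8, the study's methods name GRCm39, and the listed coordinates overlap RefSeq GRCm38.p6 for 99.86% of 37624 genes matched by symbol. Replicates are not described as separate cultures, so p-values measure the spread between libraries. Groups came from the library titles.

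The 11727 genes that reached 1 FPKM in 3 or more libraries were fitted as log2(FPKM + 1) with limma 3.58.1 in R 4.3.3 (lmFit, eBayes with trend and robust estimation, all 9 libraries, no covariate), with Benjamini-Hochberg adjustment within each comparison. Fold changes on this scale understate changes of low genes. Members and gene lists were chosen with earlier results of these data known. Named genes were all members, the genes of each list with the smallest adjusted p (up to 2 per comparison with Ctrl), and the 3 genes closest to each member by Pearson's r among those in the upper 75% of mean level. Some genes that this rule names are not reported here; they stay in the counts. FPKM times gene length gave whole fragments (within 0.05) for 100% of values. The fit was tested on simulated data. Promoters of 6 of 7 members matched the RefSeq table; Fosl1 did not. Replicate numbers did not pair the libraries (correlations of deviations -0.0565 to 0.0744).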

Additional observations from a re-analysis of the deposited data

Results flagged for a closer look

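The difference in Jun between the doses was singled out because the change against the shared Ctrl libraries differed by a test of the difference itself: the Ep2 change minus the Ep1 change was -1.02 on the log2 scale (adjusted p = 0.00992 in limma), with every Ep2 library (13.6 to 18.6 FPKM) below every Ep1 library (24.8 to 48.1 FPKM). Junos, on the opposite strand, was at 0.631 to 0.695 FPKM in Ep1 and 0.816 to 1.16 FPKM in Ep2, and its part in the result was not tested.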

How the results depend on the processing

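Of 393 member log2 fold changes recomputed under alternative settings, 356 kept their direction and their side of the threshold, 14 newly passed it, 12 no longer passed it and 11 changed sign; of 379 recomputed values of the list genes that the naming rule picks, 345 stayed and 34 no longer passed. The cause of each change below was not tested. The share of all tested genes called under each alternative was not computed, so nothing is read from the member counts below. Of the 7 members, 2 passed the adjusted p in Ep1 vs Ctrl; this was 4 with a pseudocount of 0.1, 1 with no filter, 1 with only the groups compared, 1 without trend and robust estimation, 3 with the length and GC correction, and 0 to 2 with single libraries left out (0 without Ctrl replicate 2). DEGs in Ep1 vs Ctrl went from 0 to 3 with a pseudocount of 0.1, to 1 with the length and GC correction, and to 0 to 1 with single libraries left out (1 without Ep1 replicate 3). In Ep2 vs Ctrl, 1 member passed; this was 2 with median centring, 2 with the length correction, 4 with the length and GC correction, and 1 to 3 with single libraries left out (3 without Ep1 replicate 1, 2 without Ep2 replicate 3). DEGs there went from 0 to 1 with a pseudocount of 0.1, to 1 with voom, and to 0 to 1 with single libraries left out (1 without Ep1 replicate 1). That last DEG was Fosb, whose filter limit is described above. Fosb was also among the 4 members past the test and the 3 DEGs with a pseudocount of 0.1 in Ep1 vs Ctrl. It was likewise among the 3 that passed in Ep2 vs Ctrl without Ep1 replicate 1, and the same limit holds for these counts. In Ep2 vs Ep1 the count went from 1 to 2 with the length and GC correction and stayed 1 with any library left out. The length and GC correction was chosen after seeing the data.

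With the replicate number as a block, 2 members passed in Ep2 vs Ctrl (Junb added, adjusted p = 0.0346) and 2 in Ep2 vs Ep1 (Jund added, adjusted p = 0.0323); same-numbered libraries did not deviate together, so the libraries share only a number.

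Signs changed only for values near 0. Fosl1 in Ep1 vs Ctrl was 0.0068 with the length correction, 0.0841 with the length and GC correction and 0.0057 without Ctrl replicate 2 (-0.0703 to 0.0057 over all omissions). Fosl1 in Ep2 vs Ctrl was -0.0256 without Ctrl replicate 3 and -0.019 without Ep2 replicate 1 (-0.0256 to 0.0504). Fosl2 in Ep2 vs Ep1 was 0.0518 with median centring, 0.032 with voom, 0.0097 with the length and GC correction, 0.1027 without Ep1 replicate 1 and 0.0602 without Ep2 replicate 2 (-0.0762 to 0.1027). Junb in Ep2 vs Ep1 was -0.0648 without Ep2 replicate 1 (-0.0648 to 0.1581). Fosl2 in Ep2 vs Ctrl and Jun in Ep2 vs Ep1 passed the test under all 10 alternatives and all 9 omissions. Fos and Fosb have no value with a mean of at least 5 FPKM. With 3 libraries a group, the spread of Ep1 replicate 1 limits what can be said of Fos, Fosb and Jun.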
